A study of Mus musculus with 16 samples.

Results

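miR-101a and miR-101b are paralogous mouse microRNAs with nearly the same mature sequence. They were taken from a one-colour Agilent array study of liver and liver tumours in male C3H/HeJ mice by matching the gene name on the array to mmu-miR-101a or mmu-miR-101b, which gave 2 of the 566 mouse miRNAs on the array and 4 of its 1672 mouse probes. The 16 samples, with 1 array each, fall into 4 groups by their titles. They are 7 Ctnnb1-mutated tumours of mice that received phenobarbital, 3 non-tumour livers of that phenobarbital arm, 3 Ha-ras-mutated tumours of mice that received no phenobarbital, and 3 non-tumour livers of that second arm, called untreated controls here for the missing phenobarbital alone.

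Tumours were started with the liver carcinogen diethylnitrosamine (DEN), injected once at 2 or 6 weeks of age. Phenobarbital, a tumour promoter of rodent liver, followed as 0.05% of the diet. The tissue labels give 27 weeks of treatment, while the design text gives 28 to 36 weeks and the treatment protocol names drinking water in place of the diet. The labels do not say whether the control livers had received the carcinogen, which dose applied to which arm, or whether each sample of a group is from an animal of its own, so the p-values below measure the spread between these samples, which may be technical. Ctnnb1 encodes beta-catenin of the Wnt pathway, and Ha-ras encodes a small GTPase that activates the MAP kinases. The tumours therefore differ in mutation, in phenobarbital and possibly in carcinogen dose and age, and these cannot be told apart.

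A miRNA guides Argonaute to transcripts that pair with its seed, bases 2 to 8 from its 5′ end, and lowers their translation and stability. miR-101 is best known as a repressor of Ezh2, the histone methyltransferase of Polycomb repressive complex 2, and its reported targets also include the survival protein Mcl1 and the AP-1 subunit Fos. In human liver cancer it is commonly described as reduced. The sequences of both mature strands show how closely the paralogs resemble each other. They are RefSeq entries of build GRCm38.p6, written 5′ to 3′ with the seed in capitals.
mmu-miR-101a-3p: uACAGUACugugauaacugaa
mmu-miR-101b-3p: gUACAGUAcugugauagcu
The strands share an uninterrupted run of 15 bases, UACAGUACUGUGAUA. It starts at base 1 of miR-101a and at base 2 of miR-101b, since the RefSeq entry for miR-101b begins 1 base further upstream. Over the 18 bases that then align there is 1 mismatch, A16G, counted from the 5′ end of miR-101a. Because of the offset, the 7 bases that form the seed of miR-101a lie at bases 3 to 9 of the listed miR-101b.

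The precursors come from different chromosomes. Mir101a was listed at chr4:101346945-101347027 on the minus strand, overlapping the long non-coding RNA gene E130102H24Rik and with Ak4 and Jak1 as its nearest protein-coding genes. Mir101b was listed at chr19:29135279-29135375 on the plus strand, within Rcl1, a gene that acts in ribosomal RNA maturation. The hairpins are given to show where the precursors are alike. Capitals mark the 5p strand and then the 3p strand.
Mir101a hairpin: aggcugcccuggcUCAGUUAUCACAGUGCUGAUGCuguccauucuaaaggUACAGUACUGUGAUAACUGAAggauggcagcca
Mir101b hairpin: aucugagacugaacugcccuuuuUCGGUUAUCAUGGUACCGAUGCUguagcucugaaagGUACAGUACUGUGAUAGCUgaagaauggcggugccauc
The longest run common to both hairpins is 20 bases, and it covers the start of the 3p strand, whereas the 5p strands share a run of only 7 bases. In the Mir101b hairpin, miR-101b is followed by the same 3 bases that end miR-101a. RefSeq lists a further gene, Mir101c on chromosome 9, whose 19-base mature strand is contained in miR-101a from its base 2 onwards. No array name holds miR-101c, and it was not analysed here.

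Each paralog was measured with 2 probes of 10 spots each. The probe sequences were not used here, so how far a probe for one paralog binds the other was not tested. Of the 640 member spots on the 16 arrays, 639 were well above background and 0 were saturated, and both miRNAs were detected on every array. miR-101a*, the opposite strand of the Mir101a hairpin, was detected on 0 of 16 arrays. The SD between spots of a member probe was 4.95% of its mean at the median and 19.3% at most. Levels are given as log2 of the scaled intensity, in which each array was set to a common 75th percentile of well-detected probes, and a level of one probe cannot be read against that of another.

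The arrays held between 83 and 117 detected miRNAs, and the 75th percentile before scaling lay between 386 and 1248 intensity units. miR-122, the main miRNA of hepatocytes, was at 13.66 ± 0.40 in Ctnnb1 tumours (SD, n = 7), 14.08 ± 0.13 in phenobarbital controls (n = 3), 14.25 ± 0.26 in Ha-ras tumours (n = 3) and 14.18 ± 0.05 in untreated controls (n = 3). All 3 hepatocyte markers (miR-122, miR-192 and miR-194) were detected on all 16 arrays. Markers of other cells were present too: 2 of 3 erythroid, 2 of 5 leukocyte, 1 of 2 endothelial and 1 of 5 mesenchymal markers were detected on all arrays. Erythroid miR-451 averaged 11.44 in Ctnnb1 tumours, 11.86 in phenobarbital controls, 11.41 in Ha-ras tumours and 11.16 in untreated controls, and endothelial miR-126-3p averaged 9.31, 9.60, 9.12 and 9.41 in the same groups. The mesenchymal marker miR-199a-3p averaged 5.58, 6.75, 5.03 and 6.54 in the same groups, and the mesenchymal marker miR-143 averaged 4.63, 4.94, 4.63 and 5.31. Both were thus lower on average in each tumour kind than in its controls. The leukocyte markers miR-150 and miR-155 and the mesenchymal markers miR-214 and miR-145 were detected on no array.

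The first comparison asked whether Ctnnb1-mutated tumours differed from control liver of the same arm. Neither paralog passed the test, although most tumours held less miR-101a than the controls. miR-101a had a lowest, median and highest level of 6.55, 6.97 and 7.60 in the 7 Ctnnb1 tumours, against 7.47, 7.63 and 7.64 in the 3 phenobarbital controls. Thus 6 of the 7 tumours lay below all 3 controls, and tumour replicate 1, the highest, lay among them. The mean was 7.01 ± 0.36 in Ctnnb1 tumours (SD, n = 7) and 7.58 ± 0.10 in phenobarbital controls (n = 3). That is a 1.48-fold lower level in the tumours (log2 fold change -0.57, SE 0.19, 95% interval -0.97 to -0.17, limma adjusted p = 0.0701 with Benjamini-Hochberg adjustment over the 96 tested miRNAs). In bulk tissue, fewer cells that hold a miRNA and less of it per cell cannot be told apart.

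miR-101b showed no such separation. It had a lowest, median and highest level of 6.72, 7.38 and 7.63 in the Ctnnb1 tumours, against 7.32, 7.33 and 7.53 in the phenobarbital controls. The control values sat inside the range of the tumours. The mean was 7.28 ± 0.31 in Ctnnb1 tumours (SD, n = 7) and 7.39 ± 0.12 in phenobarbital controls (n = 3; log2 fold change -0.11, SE 0.17, 95% interval -0.47 to 0.26, limma adjusted p = 0.760). An interval of this width does not show equal levels. In this comparison 8.33% of the 96 tested miRNAs were called, against 0 of the 2 paralogs.

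The miR-101a value depended on single arrays. Without Ctnnb1 tumour replicate 1 the log2 fold change was -0.66 and passed (limma adjusted p = 0.0077), as it did without replicate 5 at -0.62 (adjusted p = 0.041). Leaving out any other array gave no call. The highest adjusted p came without phenobarbital control replicate 6 (log2 fold change -0.54, adjusted p = 0.286). With slide as a random block it was -0.59 (adjusted p = 0.011), but the correlation that this fit estimated within slides was negative, at -0.12. With slide as a fixed block it was -0.40 (adjusted p = 0.775). All 7 Ctnnb1 tumours lay on slide 1 and no phenobarbital control did, so no within-slide value exists, and the fixed-block estimate rests on the Ha-ras tumour of slide 1.

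**Figure D1:**
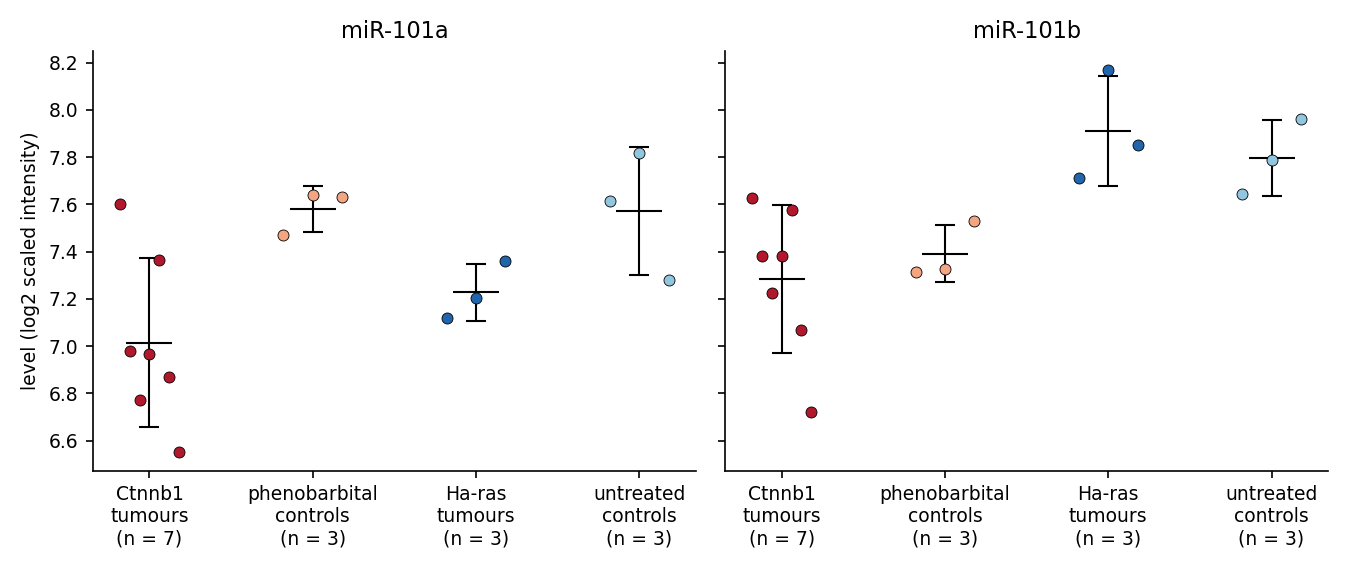
Level of miR-101a (left) and miR-101b (right) on each array as log2 scaled intensity, for the 4 groups. Points are arrays, the horizontal bar is the group mean and the error bar is 1 SD; miR-101b of all 7 Ctnnb1 tumours (6.72 to 7.63) lies below that of the 3 Ha-ras tumours (7.71 to 8.17), while the miR-101a ranges of these groups overlap.

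Tumours with mutated Ha-ras were compared next with the untreated controls. Neither paralog passed here either, and their estimates had opposite signs. miR-101a was at 7.12, 7.20 and 7.36 in the Ha-ras tumours, against 7.62, 7.82 and 7.28 in the untreated controls. Of the tumours, 2 lay below all 3 controls, and untreated control replicate 3 lay between the tumours. The mean was 7.23 ± 0.12 in Ha-ras tumours and 7.57 ± 0.27 in untreated controls (SD, n = 3 each; log2 fold change -0.34, SE 0.22, 95% interval -0.82 to 0.13, limma adjusted p = 0.299). miR-101b was at 7.71, 8.17 and 7.85 in the Ha-ras tumours, against 7.64, 7.79 and 7.96 in the untreated controls. The groups overlapped in part: Ha-ras tumour replicate 2 lay above all 3 controls, and untreated control replicate 1 lay below all 3 tumours. The mean was 7.91 ± 0.23 in Ha-ras tumours and 7.80 ± 0.16 in untreated controls (log2 fold change 0.11, SE 0.20, 95% interval -0.32 to 0.55, adjusted p = 0.709). Of all tested miRNAs 29.2% were called in this comparison, against 0 of the 2 paralogs. Without Ha-ras tumour replicate 2 the miR-101b estimate turned to -0.02, and under scaling over all mouse probes the miR-101a estimate turned to 0.23. Within slide 2, which held 2 Ha-ras tumours and 1 untreated control, the log2 fold changes were -0.33 for miR-101a and 0.37 for miR-101b, values from a single control array.

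The third comparison set the Ctnnb1 tumours against the Ha-ras tumours, and here miR-101b was called. Its lowest, median and highest level was 6.72, 7.38 and 7.63 in the 7 Ctnnb1 tumours, against 7.71, 7.85 and 8.17 in the 3 Ha-ras tumours. Every one of the 7 Ctnnb1 tumours was thus lower than each of the 3 Ha-ras tumours. The level was 1.55-fold lower in Ctnnb1 tumours (log2 fold change -0.63, SE 0.17, 95% interval -0.99 to -0.26, limma adjusted p = 0.0186). Of the 96 tested miRNAs 30.2% were called in this comparison and 13.5% were called lower, and 6.25% had all Ctnnb1 tumours below all Ha-ras tumours. miR-101a, with a mean of 7.01 ± 0.36 in Ctnnb1 tumours (SD, n = 7) and 7.23 ± 0.12 in Ha-ras tumours (n = 3), was not called (log2 fold change -0.21, SE 0.19, 95% interval -0.61 to 0.19, adjusted p = 0.436). Of the Ctnnb1 tumours, 5 lay below and 2 above all Ha-ras tumours for miR-101a.

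The miR-101b call leaned on Ha-ras tumour replicate 2, the array with the highest miR-101b of all at 8.17. Without it the log2 fold change was -0.50 (limma adjusted p = 0.107). Calls over all 96 tested miRNAs fell from 29 to 5 without this array, so the loss was not particular to miR-101b. Within slide 1, which held the 7 Ctnnb1 tumours and a single Ha-ras tumour, the miR-101b log2 fold change was -0.43. That is a value that 1 array sets and that says little about the call. With slide as a fixed block, which draws this contrast from the same arrays, it was also -0.43 (adjusted p = 0.359). The deposited value table gave -0.38 (adjusted p = 0.103), and scaling over all mouse probes gave -1.18 (adjusted p = 0.00396), a setting under which the median over the tested miRNAs was -0.32 in place of 0.08. miR-122 was also lower in Ctnnb1 than in Ha-ras tumours (log2 fold change -0.59, adjusted p = 0.0407). Of the 3 hepatocyte markers 1 was called lower, beside 13.5% of all tested miRNAs. miR-194 was not called (log2 fold change -0.51, adjusted p = 0.109), and miR-192 hardly differed (-0.0036, adjusted p = 0.987). The mean level of the 3 markers on an array was 10.11 to 11.07 in Ctnnb1 tumours and 10.74 to 11.12 in Ha-ras tumours. The leukocyte marker miR-223 was higher in Ctnnb1 tumours, at 6.31 ± 0.40 (SD, n = 7), than in Ha-ras tumours, at 5.49 ± 0.29 (n = 3; log2 fold change 0.82, adjusted p = 0.0188). The other tested leukocyte marker, miR-142-3p, was not called (log2 fold change 0.57, adjusted p = 0.209). Thus 1 of 2 was called, beside 30.2% of all tested miRNAs. The part of these markers in the miR-101b difference was not tested.

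The last comparison of levels, between the control livers, asked about phenobarbital without a tumour. These livers are from different arms, so a possible difference in carcinogen or age cannot be told apart from phenobarbital. miR-101a had nearly the same mean in phenobarbital controls, 7.58 ± 0.10, and untreated controls, 7.57 ± 0.27 (SD, n = 3 each; log2 fold change 0.01, SE 0.22, 95% interval -0.46 to 0.48, limma adjusted p = 0.975). miR-101b was at 7.32, 7.33 and 7.53 in the phenobarbital controls, against 7.64, 7.79 and 7.96 in the untreated controls. All 3 phenobarbital controls lay below all 3 untreated controls, as 10.4% of the tested miRNAs did. The difference did not pass (log2 fold change -0.41, SE 0.20, 95% interval -0.84 to 0.03, adjusted p = 0.559). Within slide 2 it was -0.32 (2 phenobarbital controls against 1 untreated control) and within slide 3 it was -0.35 (1 against 2), each with a single array on one side. Limma called 0% of the tested miRNAs here, and 6 of 96 had an unadjusted p under 0.05.

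In order of its group means, miR-101a was highest in the control livers of both arms, then in Ha-ras tumours, and lowest in Ctnnb1 tumours, and no neighbouring pair in this order passed the test. For miR-101b the order was Ha-ras tumours, untreated controls, phenobarbital controls and Ctnnb1 tumours, again with no neighbouring pair called. Ha-ras tumours, first in the order for miR-101b, came after both control groups for miR-101a. The tumour effect of the Ctnnb1 arm minus that of the Ha-ras arm was -0.22 for miR-101a (SE 0.29, adjusted p = 0.653) and -0.22 for miR-101b (SE 0.26, adjusted p = 0.624), in a comparison where 2.08% of miRNAs were called. The 2 tumour effects were not shown to differ for either paralog.

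**Figure D2:**
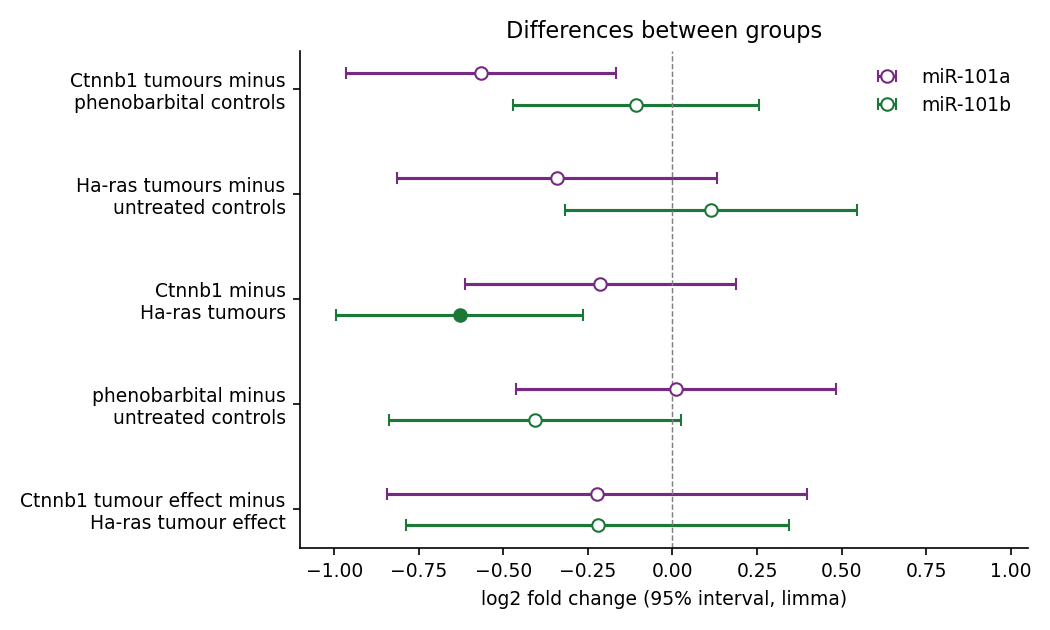
Log2 fold change with its 95% interval (limma, 16 arrays in 1 fit) for miR-101a (purple) and miR-101b (green) in the 5 comparisons; a filled point has an adjusted p under 0.05. The filled point is miR-101b in Ctnnb1 minus Ha-ras tumours at -0.63, and in the comparison above it the 2 estimates lie on opposite sides of 0.

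The paralogs were then compared within each array, by taking the log2 level of miR-101a minus that of miR-101b. A factor that multiplies all signals of an array cancels in this difference. Its own size has no meaning, since the probes differ, but a change between groups shows that the signals of the paralogs moved unequally. Binding of a probe to the other paralog does not cancel, and its part was not tested. The difference was -0.46, -0.21 and -0.02 at the lowest, median and highest Ctnnb1 tumour, against 0.10, 0.15 and 0.31 in the 3 phenobarbital controls. All 7 Ctnnb1 tumours lay below all 3 phenobarbital controls. The mean was -0.27 ± 0.16 in Ctnnb1 tumours (SD, n = 7) and 0.19 ± 0.11 in phenobarbital controls (n = 3), so that the ratio of miR-101a to miR-101b was 1.37-fold lower in the tumours (change -0.46, SE 0.09, two-sided exact permutation p = 0.0167, adjusted p = 0.0333 over 4 comparisons). That p is the smallest that 7 against 3 can give. How often the difference between other pairs of miRNAs parts the groups in this way was not tested.

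The Ha-ras tumours had still lower differences, of -0.59, -0.97 and -0.49. The Ctnnb1 tumours therefore all lay above the Ha-ras tumours, with a ratio of miR-101a to miR-101b 1.33-fold higher (change 0.42, SE 0.16, exact permutation p = 0.0167, adjusted p = 0.0333). This change lost its call (adjusted p = 0.0667) with quantile scaling, normexp, the total gene signal or probe A_54_P4365 minus A_54_P2594, and it was 0.082 with the deposited table (adjusted p = 0.667). Without Ha-ras tumour replicate 2 it was 0.27. The change of Ctnnb1 tumours against phenobarbital controls lost its call under the same settings, at -0.30 with normexp and at -0.46 with the deposited table (adjusted p = 0.2). With quantile scaling, normexp and the total gene signal its exact permutation p stayed at 0.0167, the smallest possible. Its adjusted p rose to 0.0667 there only because the exact p of Ctnnb1 against Ha-ras tumours rose to 0.0333. Under these 3 settings the lost call thus does not show a weaker separation from the phenobarbital controls. For Ctnnb1 against Ha-ras tumours within slide 1 the change was 0.32, from 7 Ctnnb1 tumours against 1 Ha-ras tumour. Ctnnb1 tumours and phenobarbital controls never shared a slide, so between them slide and group cannot be told apart for this difference.

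Against the untreated controls, at -0.03, 0.03 and -0.68, the Ha-ras tumours changed by -0.46 (SE 0.27, exact permutation p = 0.3), nearly the same amount as the Ctnnb1 tumours did in their arm. Untreated control replicate 3 lay among the Ha-ras tumours, and the other two lay above them. The phenobarbital controls all lay above the untreated controls (change 0.42, SE 0.24, exact permutation p = 0.1, adjusted p = 0.133), which is the smallest p that 3 against 3 allows. Without untreated control replicate 3 this change was 0.19, so its size rested on that array. Without the same array the change of Ha-ras tumours against untreated controls was -0.68. Within slide 2 the Ha-ras change was -0.70 from 2 tumours and 1 control.

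**Figure D3:**
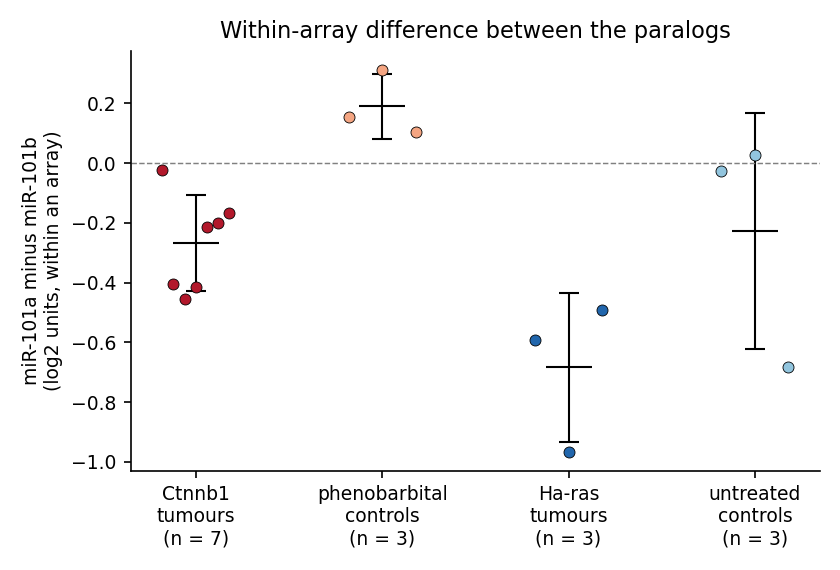
Log2 level of miR-101a minus log2 level of miR-101b on each array, by group; points are arrays, horizontal bars are group means and error bars are 1 SD, and the dashed line marks 0, which carries no meaning of its own. The 7 Ctnnb1 tumours (-0.46 to -0.02) lie below the 3 phenobarbital controls (0.10 to 0.31) and above the 3 Ha-ras tumours (-0.97 to -0.49).

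Despite these shifts between groups, the paralogs varied together among the Ctnnb1 tumours. Over the 7 tumours, all on slide 1, Pearson's r was 0.894 (exact permutation p = 0.00278) and Spearman's rho 0.964 (exact permutation p = 0.00278), and this was the only correlation tested. Without replicates 1 and 7, farthest from the median of miR-101a, r was 0.842. Replicates 1 and 5 were highest for both paralogs and replicate 7 was lowest for both. The same replicates stood at the ends for miR-122, at 14.13 and 14.18 in replicates 1 and 5 and 13.08 in replicate 7. They did so for miR-26a too, at 8.63 and 8.92 in replicates 1 and 5 and 7.55 in replicate 7. miR-26b did not follow this order, at 9.26 and 8.33 in replicates 1 and 5 and 9.48 in replicate 7. The order was thus shared with the hepatocyte marker miR-122 but not with miR-26b. The range was 2.07-fold for miR-101a and 1.87-fold for miR-101b, wider than the 1.12-fold and 1.16-fold among phenobarbital controls, though these are 3 arrays against 7. The points share an array, its scaling and a target sequence that is nearly identical, and the part of these in the correlation was not tested. No other group held enough samples for a correlation.

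The 2 probes of each paralog gave like changes. For miR-101a, probe A_54_P2268 had log2 changes of -0.60 in Ctnnb1 tumours against phenobarbital controls and -0.36 in Ha-ras tumours against untreated controls, and probe A_54_P4365 had -0.53 and -0.32. For miR-101b, probe A_54_P2593 was lower by a log2 change of -0.67 in Ctnnb1 than in Ha-ras tumours, and probe A_54_P2594 by -0.58, each with all 7 below all 3. Both also placed every phenobarbital control below every untreated control, with log2 changes of -0.50 and -0.31. The 2 probes of miR-101a kept a nearly constant distance, with the second brighter by 0.14 to 0.29 log2 units over the 16 arrays. Those of miR-101b differed by 1.55 to 2.09 log2 units, and the dimmer one, A_54_P2593, went down to a mean intensity of 51.0 before scaling.

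**Figure D4:**
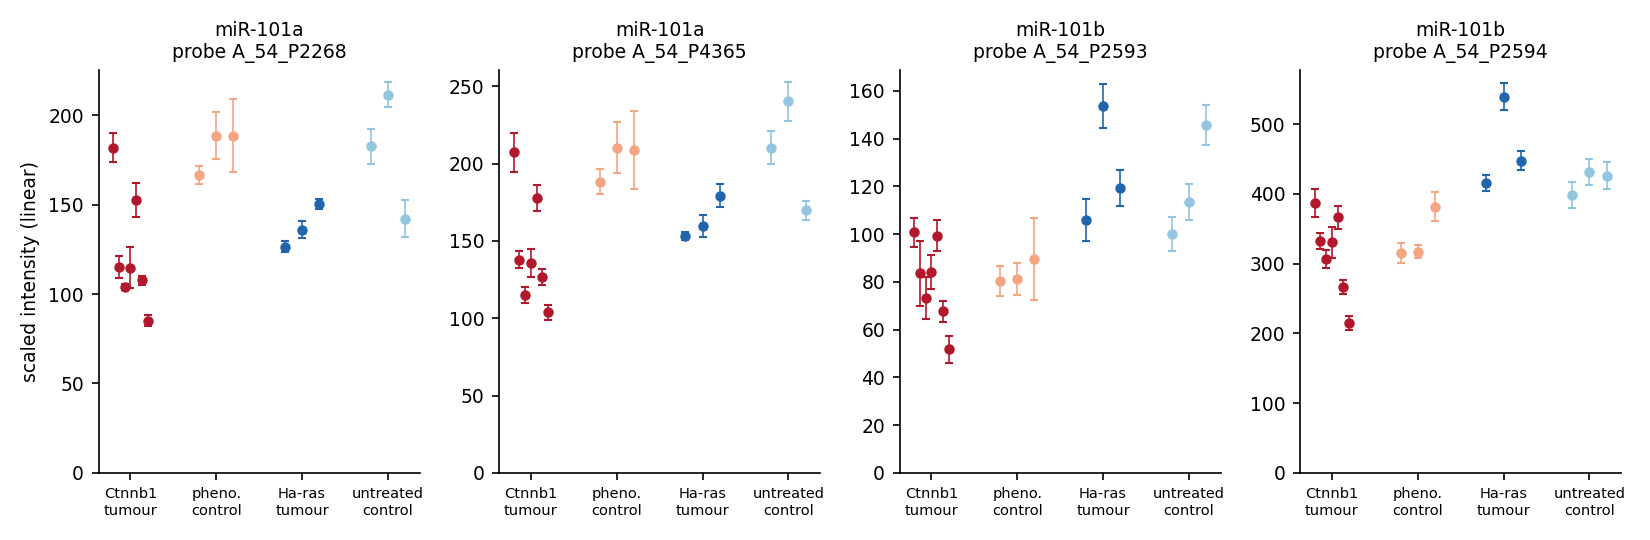
Scaled intensity on a linear axis for the 4 member probes on each of the 16 arrays, by group, with replicates in label order; error bars are the SD between spots of the probe. Both miR-101b probes are lower in all Ctnnb1 tumours than in any Ha-ras tumour, and both miR-101a probes are lower in 6 of 7 Ctnnb1 tumours than in any phenobarbital control.

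Other miRNAs reported to repress Ezh2 were set beside the paralogs. miR-26a and miR-26b have a different seed, which they share with each other.
mmu-miR-26a-5p: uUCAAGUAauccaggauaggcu
mmu-miR-26b-5p: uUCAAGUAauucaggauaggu
Of the list of 4 (miR-101a, miR-101b, miR-26a and miR-26b), 1 was called in any comparison, miR-101b in Ctnnb1 against Ha-ras tumours, where 30.2% of all tested miRNAs were called. miR-26a was at 7.55, 8.08 and 8.92 at the lowest, median and highest Ctnnb1 tumour, against 8.55, 8.60 and 8.65 in the phenobarbital controls (log2 fold change -0.41, SE 0.22, limma adjusted p = 0.294). It was at 8.43, 8.38 and 8.74 in Ha-ras tumours, against 8.61, 8.88 and 8.97 in untreated controls (-0.30, SE 0.26, adjusted p = 0.425). miR-26b was at -0.14 in the first of these comparisons (adjusted p = 0.747) and at 0.03 in the second (adjusted p = 0.995). The list's median log2 fold change was -0.28 in Ctnnb1 tumours against phenobarbital controls, beside -0.05 over all 96 tested miRNAs, and -0.14 in Ha-ras tumours against untreated controls, beside -0.06.

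miR-144, an erythroid miRNA, shares bases 2 to 7 with miR-101a, and miR-199a-3p, which is found mainly in mesenchymal cells, holds a similar run shifted by 1 base. Their sequences are given to show this likeness.
mmu-miR-144-3p: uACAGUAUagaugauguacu
mmu-miR-199a-3p: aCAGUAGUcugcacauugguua
miR-199a-3p was lower than in the controls in both tumour kinds, with a log2 fold change of -1.16 in Ctnnb1 tumours against phenobarbital controls (limma adjusted p = 0.00187) and -1.51 in Ha-ras tumours against untreated controls (adjusted p = 0.000509). miR-144 was not called in any comparison, at -0.25 in the first (adjusted p = 0.767) and 0.33 in the second (adjusted p = 0.670), and it ranged widely within groups, from 5.72 to 7.70 among the untreated controls. miR-143, the other tested mesenchymal marker, was called lower in the second comparison (-0.68, adjusted p = 0.0146). In the first it was not called (-0.31, adjusted p = 0.272). Its mean in both tumour kinds was about 4.63, the value to which lower signals were set. Of the 2 tested mesenchymal markers, 1 was called in the first and 2 in the second. The shares of all tested miRNAs called there were 8.33% and 29.2%. The part of these markers in the paralog levels was not tested.

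Of 9 hepatocyte-enriched miRNAs, with both paralogs among them, 0 were called in Ctnnb1 tumours against phenobarbital controls, where 8.33% of all tested miRNAs were. In Ha-ras tumours against untreated controls 1 was called, miR-378, which was lower, beside 29.2% of all tested miRNAs. Between Ctnnb1 and Ha-ras tumours 3 were lower, namely miR-101b, miR-122 and miR-30a, and 1 was higher, miR-22, beside 30.2% called and 13.5% called lower over all tested miRNAs. miR-30a had a log2 fold change of -0.77 (limma adjusted p = 0.0217) and miR-22 one of 0.55 (adjusted p = 0.0281). The list's median was -0.21 there, beside 0.08 over all tested miRNAs.

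Likeness of pattern was measured as the root mean square difference between log2 levels over the 16 arrays, after centring each miRNA on the mean of its 4 group means, among the 72 miRNAs detected on all arrays. The nearest to miR-101a were miR-125b-5p at 0.21, miR-26a at 0.21 and miR-122 at 0.21 log2 units, where the median over the others was 0.43. The nearest to miR-101b were miR-122 at 0.21, miR-30c at 0.24 and miR-194 at 0.24, against a median of 0.47. The paralogs lay 0.33 from each other, so that miR-101b took place 20 among the miRNAs nearest to miR-101a and miR-101a took place 9 among those nearest to miR-101b. miR-125b-5p, which like miR-101a had its lower means in the tumours, was at 6.31 ± 0.19 in Ctnnb1 tumours (SD, n = 7), 6.57 ± 0.07 in phenobarbital controls, 6.33 ± 0.04 in Ha-ras tumours and 6.77 ± 0.17 in untreated controls (n = 3 each). miR-194, like miR-101b, had its highest mean in Ha-ras tumours, at 8.25 ± 0.32, against 8.01 ± 0.06 in untreated controls.

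**Figure D5:**
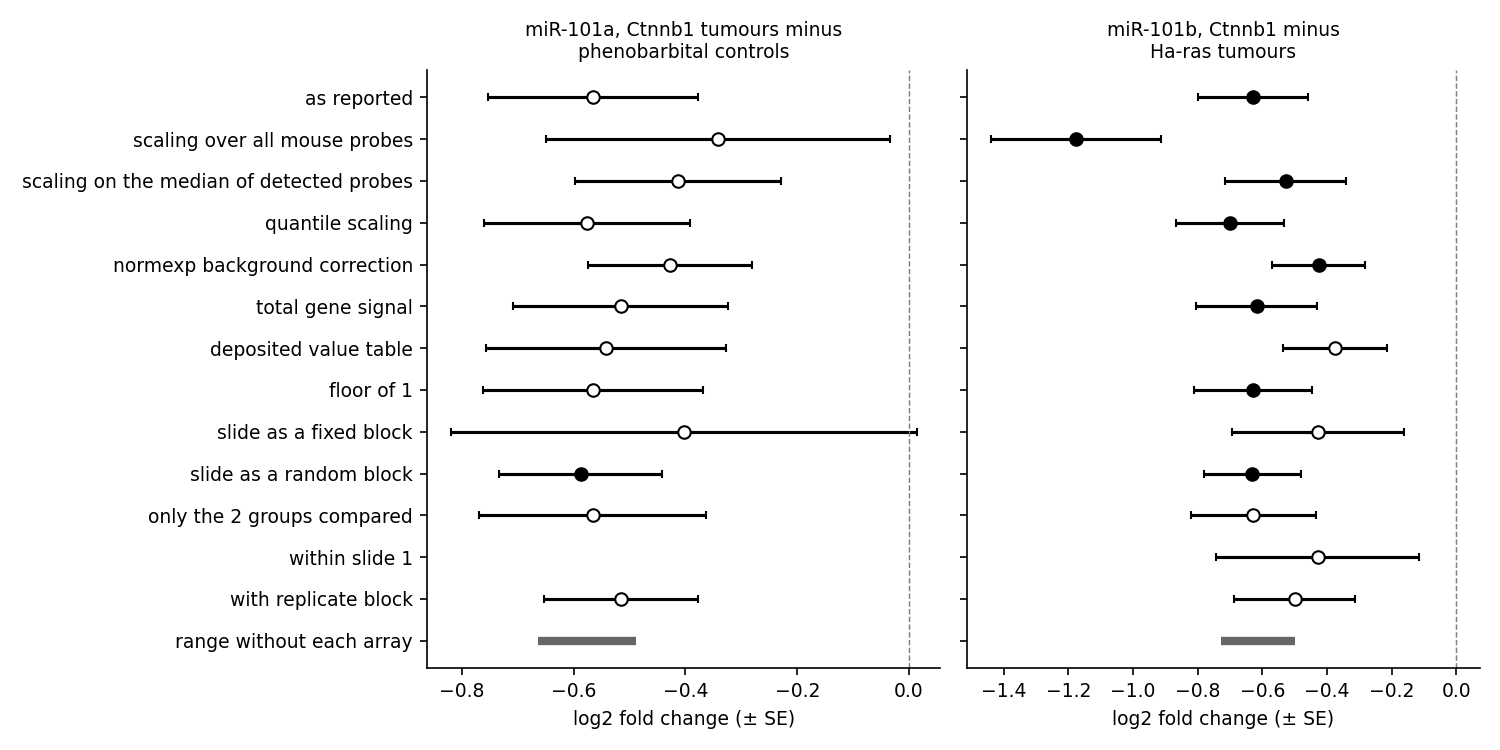
Log2 fold change ± SE under the other processing settings for miR-101a in Ctnnb1 tumours minus phenobarbital controls (left) and miR-101b in Ctnnb1 minus Ha-ras tumours (right); filled points have an adjusted p under 0.05, and the grey bar spans the values with each array left out in turn. All values shown are below 0, from -0.66 to -0.34 on the left and from -1.18 to -0.38 on the right.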

How the data were processed

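Spot intensity values were made by the authors with Agilent Feature Extraction 10.7.3.1, per the file headers; the deposited intensity is background-subtracted and not normalised between arrays. The deposited value table is on a log2 scale, read from its values, with the authors' normalisation not given in the sources used here; the submitters' processing notes name R 2.14.1. It served as an alternative. Spots marked as outliers were left out, and spots of a probe were averaged. Scaling used the 117 mouse probes that were detected on every one of the 16 arrays: an array's signals were divided by the 75th percentile of these probes and multiplied by a common constant. Signals under a log2 value of 4.63 were set to it, which touched no member probe, and the log2 values of a miRNA's probes were averaged. To count as detected, a probe needed the software's mark for a signal well above background on most of its spots.

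Testing covered the 96 miRNAs with detection on all arrays of some group, fitted with limma 3.58.1 in R 4.3.3 (lmFit and eBayes, 4 group means), with Benjamini-Hochberg adjustment and a threshold of 0.05; the fit was tested on simulated data. Within-array differences were tested by exact permutation (SciPy 1.17.1). The members, lists and tests were chosen with earlier results of these data known. Named miRNAs were the members, the lists, miR-122 and the 3 nearest patterns of each member. Slides, 3 in all, were read from the headers, and all arrays had 1 scan day. No 2 arrays held identical values. The number of arrays limits the precision.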

Additional observations from a re-analysis of the deposited data

How the results depend on the processing

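The results were recomputed 370 times in all over other scalings, background correction, summaries, filters, slide and replicate terms, probes and arrays left out; 331 kept direction and side of the threshold. Other changes were as follows, and their cause was not tested except where fewer samples or more tests set it.

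The lower miR-101b in Ctnnb1 than in Ha-ras tumours (-0.63) stayed below 0 throughout but lost its call with the deposited table (-0.38, limma adjusted p = 0.103), with all 566 miRNAs tested (-0.63, adjusted p = 0.128), with only the 2 groups fitted (-0.63, adjusted p = 0.052), with a fixed slide term (-0.43) and with replicate block over the 2 groups (-0.50, adjusted p = 0.225); within slide 1, against a single Ha-ras array, the value was -0.43, which does not bear on the call; arrays left out gave -0.73 to -0.50. miR-101a in Ctnnb1 tumours against phenobarbital controls gained a call with slide as a random block (-0.59), and arrays left out gave -0.66 to -0.49.

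Uncalled estimates that changed sign were these. miR-101a in Ha-ras tumours against untreated controls became 0.23 with all mouse probes. miR-101a in phenobarbital against untreated controls (0.01) became -0.19 with all mouse probes, -0.0071 with the median of detected probes, -0.20 with the total gene signal, -0.061 within slide 2, and -0.14 to 0.13 with arrays left out. miR-101b in Ctnnb1 tumours against phenobarbital controls became 0.12 with all mouse probes, 0.044 with the median of detected probes and 0.26 with slide as a fixed block. miR-101b in Ha-ras tumours against untreated controls became -0.014 with the total gene signal, and -0.015 to 0.21 with arrays left out.

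The change in miR-101a minus miR-101b lost its call, at adjusted p = 0.0667, with quantile scaling (-0.49 for Ctnnb1 tumours against phenobarbital controls and 0.39 for Ctnnb1 against Ha-ras tumours), normexp (-0.30 and 0.31), the total gene signal (-0.45 and 0.39) and probe A_54_P4365 minus A_54_P2594 (-0.41 and 0.36). With the deposited table it was -0.46 (adjusted p = 0.2) and 0.082 (adjusted p = 0.667). For Ctnnb1 tumours against phenobarbital controls the exact permutation p stayed at 0.0167 with quantile scaling, normexp and the total gene signal. There only its adjusted p rose, through the higher p of Ctnnb1 against Ha-ras tumours. Arrays left out gave -0.50 to -0.40 and 0.27 to 0.51; with 7 against 2 arrays no p under 0.0556 is possible.

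Same-numbered samples did not pair (correlations of their deviations from -0.77 to 0.58). The replicate block was fitted over the 2 groups compared, where neither paralog was called without it, and neither was with it. Over all miRNAs it gave 3 calls in place of 13 in Ctnnb1 against Ha-ras tumours (29 with all 4 groups), 0 in place of 9 in Ctnnb1 tumours against phenobarbital controls (8 with all 4 groups) and 16 in place of 30 in Ha-ras tumours against untreated controls (28 with all 4 groups). With arrays left out the counts were 5 to 29, 5 to 19 and 13 to 33; over all settings they were 3 to 34, 0 to 20 and 0 to 33. Calls between the Ctnnb1 and Ha-ras tumours were 16 higher and 13 lower, but 2 and 20 with all mouse probes and 22 and 10 with the median of detected probes; those between Ha-ras tumours and untreated controls were 9 higher and 19 lower, but 12 and 0 with all mouse probes and 12 and 11 with quantile scaling. Calls between the control groups numbered 0 to 6, and those of the difference between tumour effects 0 to 5.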
